A study of Canis lupus familiaris with 16 samples.

Results

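Axon guidance ligands and receptors were examined in 16 canine soft tissue sarcomas. The genes were chosen by symbol alone, as every gene of the count table named as a class 3 to 7 semaphorin, a plexin, a neuropilin, a Slit, a Robo, a netrin, a netrin receptor (DCC, NEO1 or an UNC5 gene), an ephrin or an Eph receptor. This gave 70 genes of the 41818 in the table, 35 of them ligands and 35 receptors. They comprised 20 semaphorins, 11 plexins and neuropilins, 7 Slits and Robos, 10 netrins and netrin receptors, 8 ephrins and 14 Eph receptors. RNA had been extracted from sections of formalin-fixed, paraffin-embedded tumors of dogs, depleted of ribosomal RNA and sequenced.

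The tumors were compared by the molecular identity given in their labels. Fibrosarcomas (FS, malignant tumors of fibroblast lineage) numbered 4, peripheral nerve sheath tumors (PNST, tumors of the cells that ensheathe nerves) 6 and perivascular wall tumors (PWT, tumors of the contractile cells around vessels) 6. The dogs were 9 to 13 years old in the FS group, 8 to 13 in the PNST group and 2 to 14 in the PWT group. No treatment was labelled, no normal tissue was analysed here, and each tumor was a bulk sample whose cells were not separated. The FS tumors were S1-02, S1-11, S1-12 and S2-06, with the names of the labels. Tumor S1-10, grouped here with PNST, was a PWT by histology, and S2-08, grouped with PWT, was an FS by histology. The study reassigned these tumors from their gene expression, so the molecular groups are not fully independent of the values compared. The name prefixes were unevenly spread, with 3 of 4 FS and 5 of 6 PNST tumors named S1 but 1 of 6 PWT tumors. Each S1 tumor had 3 sequencing runs and each S2 tumor 1. Tumors S1-04 and S1-05 carried identical descriptions, and whether they came from 1 dog is not stated in the labels.

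Axon guidance molecules are the signals and receptors by which growing axons find their path. Slits act through Robo receptors, semaphorins through plexins and neuropilins, netrins through DCC, neogenin and UNC5 receptors, and membrane-bound ephrins through Eph receptor tyrosine kinases, all of which reorganise the actin cytoskeleton of the receiving cell. The same molecules act outside the nervous system in blood vessel growth, cell migration and tissue boundaries, and many are made by connective tissue and Schwann cells.

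Counts falling on genes ranged from 507728 in S1-12 to 4311876 in S1-03. Of the 70 genes, 56 reached at least 10 counts in at least 4 tumors and were tested among 15408 genes, and 14 did not. A gene with counts only in FS could reach that minimum only if each of the 4 FS tumors had at least 10 counts. A gene with counts only in PNST or PWT, the larger groups, did not need every tumor of its group. UNC5C fell short with 3 counts in S1-12, the tumor with the fewest counts on genes. The genes below the minimum were SEMA3A, SEMA3E, SEMA5B, SLIT1, ROBO3, DCC, NTN5, UNC5C, EFNA2, EFNB3, EPHA5, EPHA7, EPHA8 and EPHA10. Together the 70 genes took between 0.46% and 1.05% of a tumor's counts on genes. Levels are given as CPM, that is, counts scaled by library size and composition, and are compared for a single gene between tumors, since they are not corrected for gene length. A gene was called different when its adjusted p in edgeR's quasi-likelihood test was under 0.05 and its log2 fold change exceeded 1 in size. Fewer cells of a type and less RNA per cell cannot be told apart in these bulk samples.

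**Figure D1:**
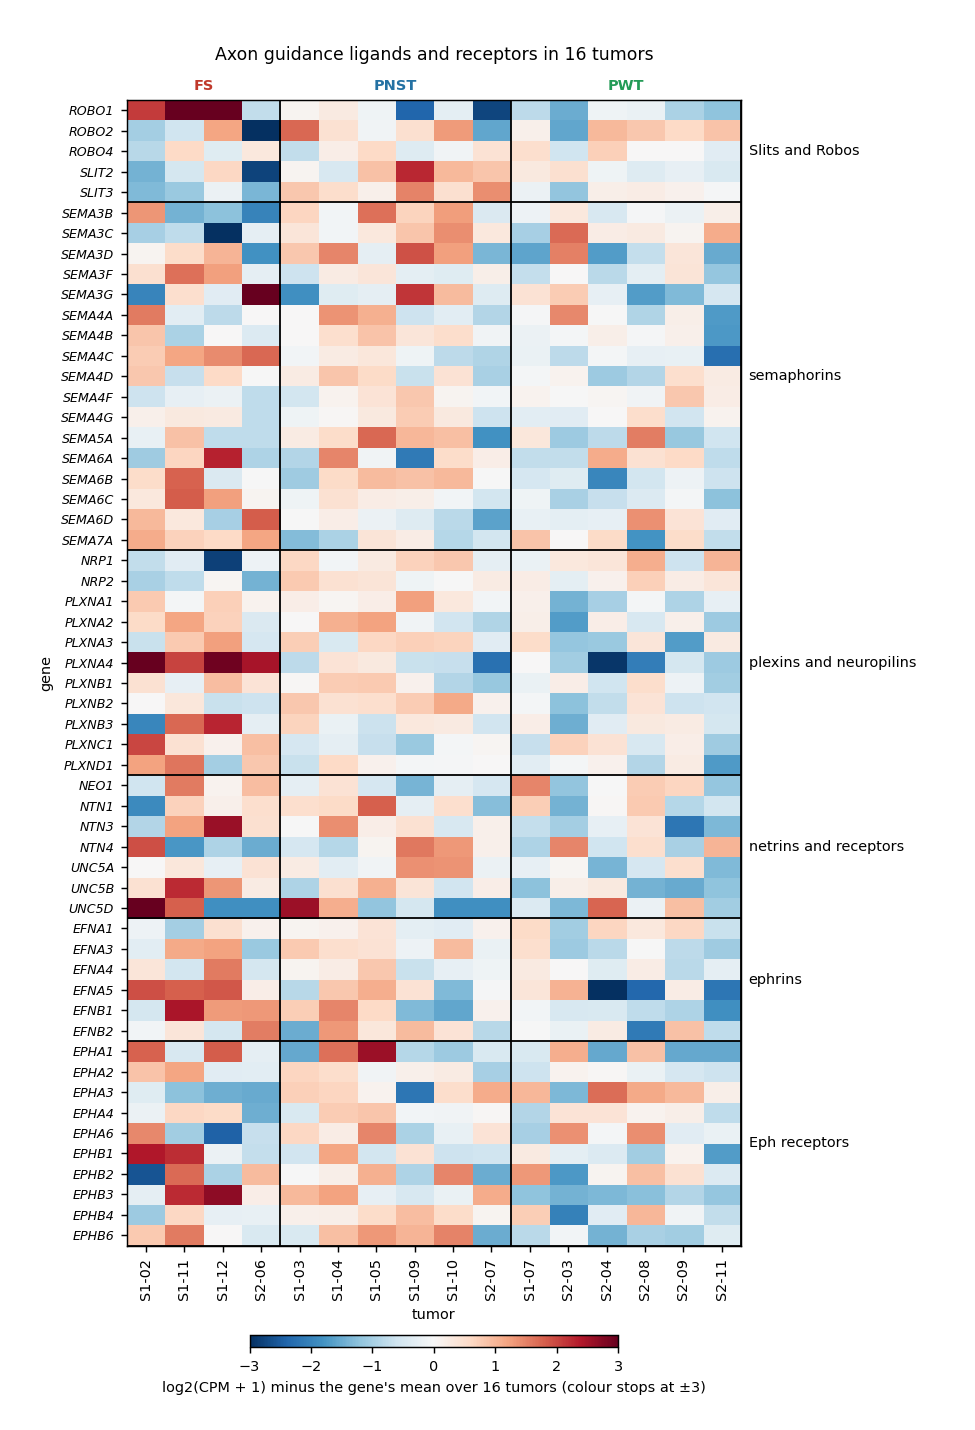
Levels of the 56 tested axon guidance genes (rows, by family) in the 16 tumors (columns, by molecular type), as log2(CPM + 1) minus the gene's mean over the tumors; red is above the mean, blue below. PLXNA4 is above its mean in 4 of 4 FS tumors, ROBO1 is far above it in 3 of 4, and most other rows are uneven within a tumor type.

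FS stood apart most. Of the 56 tested genes, 9 were higher in FS than in PNST and PWT pooled and 3 were lower. Over all genes tested, 5.78% were called higher and 3.68% lower, against 16.1% and 5.36% of the tested axon guidance genes. Receptors made up 6 of the 9 higher genes (ROBO1, PLXNA4, PLXNC1, UNC5B, EPHB1 and EPHB3) and semaphorins the other 3 (SEMA3F, SEMA4C and SEMA6C). The lower genes were the Slit ligand SLIT3, the secreted semaphorin SEMA3C and the Eph receptor EPHA3. The median log2 fold change was 0.42 over the tested axon guidance genes and 0.00386 over all genes tested. With library factors from the upper quartile of counts instead of TMM, the split was 6 higher and 4 lower, of 1436 genes called in all (1457 with TMM). With DESeq2, 15 were higher and 4 lower of the 63 axon guidance genes given an adjusted p. Of all genes given one, 9.83% were called in either direction. Among the 15 were UNC5C, EPHA5, SEMA3A and SEMA5B, named after their values were seen, which were below the count minimum. SEMA3A, for example, had 20 counts in S1-02, 41 in S1-11, 0 in S1-12 and 5 in S2-06.

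**Figure D2:**
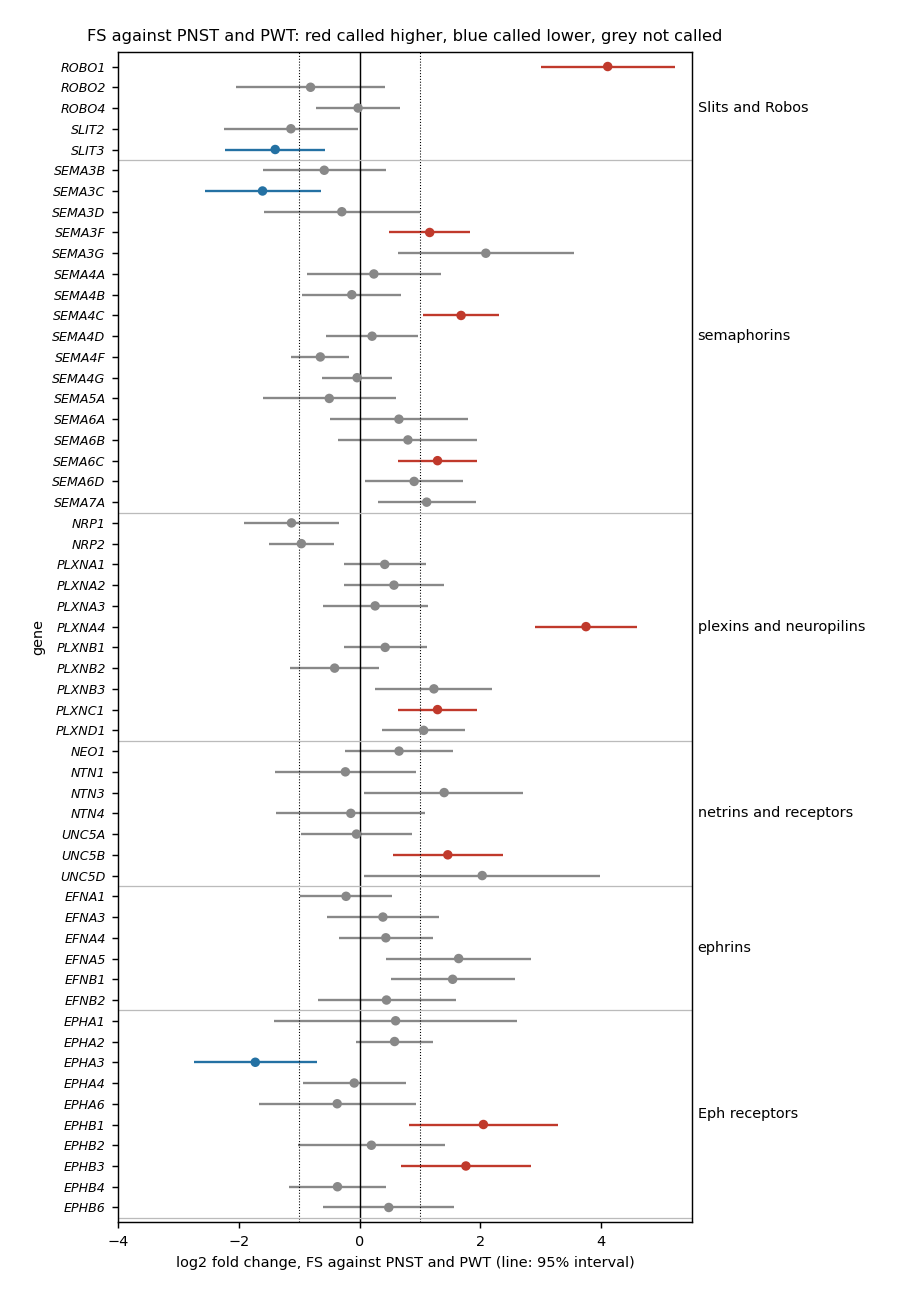
Log2 fold change of each tested gene between FS (4 tumors) and PNST and PWT pooled (12 tumors). Lines are an approximate 95% interval from the SE and the normal distribution, and dotted lines mark the fold threshold. ROBO1 at 4.11 and PLXNA4 at 3.75 lie apart from every other tested gene of the set.

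Among the tested genes, ROBO1 had the largest log2 fold change in FS. ROBO1, a receptor for Slits, stood at 307 CPM in S1-02, 1687 in S1-11, 1190 in S1-12 and 41.8 in S2-06. In the 6 PNST it ranged from 9.53 to 85.2 with a median of 60.8, and in the 6 PWT from 24.6 to 64.1 with a median of 38.2. Thus 3 FS tumors exceeded every other tumor, while S2-06 lay among the others. ROBO1 was higher in FS at a log2 fold change of 4.11 ± 0.57 (SE; edgeR quasi-likelihood adjusted p = 0.000287). Among the S1 tumors alone it was 4.27 ± 0.59, and among the S2 tumors, where S2-06 is the only FS, it was 0.19 ± 0.76. The call was kept in each of 16 fits that left out a single tumor.

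ROBO2, the close relative of ROBO1, was not called and is named here after its values were seen. Its levels in FS were 104, 141, 490 and 15.7 CPM in the tumor order used for ROBO1, against 71.7 to 706 in PNST and 71.9 to 424 in PWT, and its log2 fold change was -0.81 ± 0.63 (edgeR adjusted p = 0.458). Set against each other within a tumor, the genes separated FS from the other tumors without overlap, while PNST and PWT overlapped. ROBO1 took 74.7% (exact binomial 95% interval 72 to 77.1) of the counts on ROBO1 and ROBO2 in S1-02, 92.3% in S1-11, 70.8% in S1-12 and 72.7% in S2-06. In the 12 other tumors the share ran from 4.07% in S1-09 to 25.5% in S2-03. The intervals cover counting error only. In S2-06, whose ROBO1 level was ordinary, the high share went with the lowest ROBO2 level of the 16 tumors. This share was computed after the values were seen and is given as a description. The share of EPHB3 in the counts on EPHB3 and EPHA3, computed in the same way, did not separate FS. It was 7.37% in S1-02, below the PNST tumors S1-03 (8.4%), S1-04 (10.3%) and S1-09 (19.6%). Among the 70 genes, 34 overlap another annotated gene, ROBO1 with 9 of them and ROBO2 with 5, and whether counting used strand is not given in the sources used here.

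**Figure D3:**
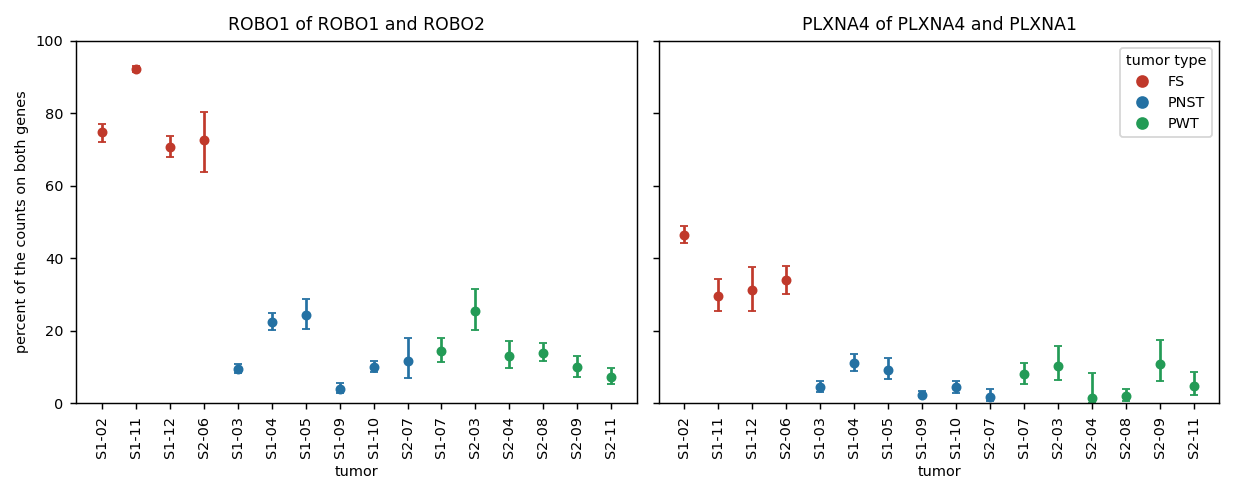
Share of counts, in percent, taken by ROBO1 of ROBO1 plus ROBO2 (left) and by PLXNA4 of PLXNA4 plus PLXNA1 (right) in each tumor, with exact 95% binomial intervals. FS tumors lie at 70.8% to 92.3% on the left and 29.7% to 46.5% on the right, above every PNST and PWT tumor in each panel.

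The ligand SLIT3 ran the other way. SLIT3 was at 519 CPM in S1-02, 604 in S1-11, 1149 in S1-12 and 509 in S2-06. In PNST it ranged from 1452 to 3671 with a median of 2095, and in PWT from 577 to 1516 with a median of 1358. Every PNST tumor was above every FS tumor, and 5 of 6 PNST tumors were above every other tumor, whereas S2-03 among the PWT tumors lay within the FS range. SLIT3 was lower in FS, with a log2 fold change of -1.40 ± 0.43 (edgeR adjusted p = 0.0402), and 7 of the 16 fits that left out a tumor (S1-02, S1-03, S1-10, S1-11, S2-06, S2-07 or S2-08) lost the call, with edgeR adjusted p from 0.0177 to 0.114 over the 16. SLIT3 carries the microRNA gene MIR218-2 within it in the gene table. SLIT2, which carries MIR218-1, stood at 164, 303, 672 and 63.2 CPM in the FS tumors, 312 to 2112 in PNST and 317 to 606 in PWT. Its FS contrast did not pass (log2 fold change -1.14 ± 0.57, edgeR adjusted p = 0.218). ROBO4, the Robo of endothelial cells, is named here after its values were seen. Its group means differed by less than their SDs, at 10.0 ± 4.7 CPM in FS (SD, n = 4), 10.3 ± 3.7 in PNST (SD, n = 6) and 10.7 ± 4.1 in PWT (SD, n = 6). A list of 10 endothelial markers summed to 261 to 540 CPM in FS, 151 to 662 in PNST and 180 to 529 in PWT, and none of the 10 was called in any comparison.

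Among plexins, PLXNA4 was higher in FS than in every other tumor. PLXNA4 pairs with neuropilins to transmit class 3 semaphorins and also binds class 6 semaphorins directly. It was at 270 CPM in S1-02, 72.4 in S1-11, 134 in S1-12 and 98.8 in S2-06. PNST ranged from 2.80 to 22.9 with a median of 10.2, and PWT from 1.39 to 17.1 with a median of 7.58. The lowest FS tumor was above the highest other tumor. The log2 fold change of 3.75 ± 0.43 (edgeR adjusted p = 0.0001) was 3.42 ± 0.43 within the S1 tumors and 4.08 ± 0.59 within the S2 tumors. PLXNA4 kept its call under all 26 alternative fits that were run. It took 29.7% to 46.5% of the counts on PLXNA4 and PLXNA1 in FS and 1.54% to 11.1% elsewhere, also computed after the values were seen. PLXNA1 itself, also named after its values were seen, was not called by edgeR or DESeq2 in any comparison.

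PLXNC1, the receptor for SEMA7A, was at 164 CPM in S1-02, 55.4 in S1-11, 44.2 in S1-12 and 75.5 in S2-06, against 18.1 to 42.0 in PNST and 18.7 to 65.0 in PWT. All 4 FS tumors were above every PNST tumor, but S1-11 and S1-12 lay within the PWT range. The log2 fold change was 1.29 ± 0.33 (edgeR adjusted p = 0.0182), and without S1-02 the call was lost, at a log2 fold change of 0.75. PLXNC1 overlaps CEP83 in the gene table. Of the 9 plexins, 2 were higher in FS, none was lower and 8 had a log2 fold change above 0. Over all genes tested, 7739 of 15408 were above 0. PLXND1, a receptor known from vessel patterning and named here after its values were seen, came next, at 1.06 ± 0.35 (edgeR adjusted p = 0.0591).

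The neuropilins, co-receptors for class 3 semaphorins and for vascular endothelial growth factors, were not called by edgeR and had log2 fold changes below 0 in FS. NRP2 was at 246 CPM in S1-02, 285 in S1-11, 508 in S1-12 and 182 in S2-06. PNST ranged from 442 to 837 and PWT from 397 to 795. S1-02, S1-11 and S2-06 were below every other tumor, and S1-12 lay inside the range of the others. NRP2 had an adjusted p of 0.0327 in edgeR at a log2 fold change of -0.97 ± 0.28, short of the fold threshold. It passed that threshold with the name prefix as a term, at -1.04 ± 0.28. NRP1, named after its values were seen, had a log2 fold change of -1.13 ± 0.40 with an adjusted p of 0.0783 in edgeR, and DESeq2 called it lower (-1.11 ± 0.37, adjusted p = 0.0327).

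Of the called semaphorins, 3 were higher in FS and 1 lower. SEMA4C, a transmembrane ligand of plexin-B receptors, was at 25.5 CPM in S1-02, 34.0 in S1-11, 40.5 in S1-12 and 50.4 in S2-06. PNST ranged from 7.29 to 18.7 and PWT from 2.24 to 13.9, so no other tumor reached the lowest FS value. The log2 fold change was 1.68 ± 0.32 (edgeR adjusted p = 0.00283), with 1.26 ± 0.31 in the S1 tumors and 2.47 ± 0.58 in the S2 tumors. SEMA4C and PLXNA4 were the called genes whose FS values overlapped no other tumor. How many of all genes tested also separated FS in this way was not counted. The same limit holds for the separations between types given below for UNC5C and EPHB3.

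SEMA6C, another transmembrane semaphorin, was higher in FS at a log2 fold change of 1.29 ± 0.34 (edgeR adjusted p = 0.0199). It was at 15.1 CPM in S1-02, 45.0 in S1-11, 29.5 in S1-12 and 12.8 in S2-06, against 4.49 to 16.7 elsewhere, so the contrast came mainly from S1-11 and S1-12. Without S1-11 the call was lost, at a log2 fold change of 0.83. SEMA3F, a secreted ligand that acts through NRP2, was at 18.3, 42.2, 31.3 and 10.5 CPM in the same order, against 5.24 to 17.2 elsewhere. Its log2 fold change was 1.16 ± 0.34 (edgeR adjusted p = 0.0347), and S2-06 again lay within the others. Leaving out S1-07, S1-10, S1-11, S1-12 or S2-08 ended the call (edgeR adjusted p 0.0125 to 0.256 over the 16 fits).

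SEMA3C, a secreted ligand for both neuropilins, was lower in FS. It was at 108 CPM in S1-02, 129 in S1-11, 18.4 in S1-12 and 181 in S2-06, against 207 to 575 in PNST and 110 to 711 in PWT. All 4 FS tumors were below all 6 PNST tumors, and S1-07 in PWT lay among them. Its log2 fold change was -1.61 ± 0.49 (edgeR adjusted p = 0.0418), and leaving out S1-02, S1-09, S1-10, S1-11, S1-12, S2-08 or S2-11 ended the call (edgeR adjusted p 0.0314 to 0.087 over the 16 fits). Across the family, 3 of 17 tested semaphorins were higher, 1 was lower and 10 of 17 had a log2 fold change above 0. SEMA3G, named after its values were seen, was at 510 CPM in S2-06 and at 127 or below in the other 15 tumors, a level of a single tumor.

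**Figure D4:**
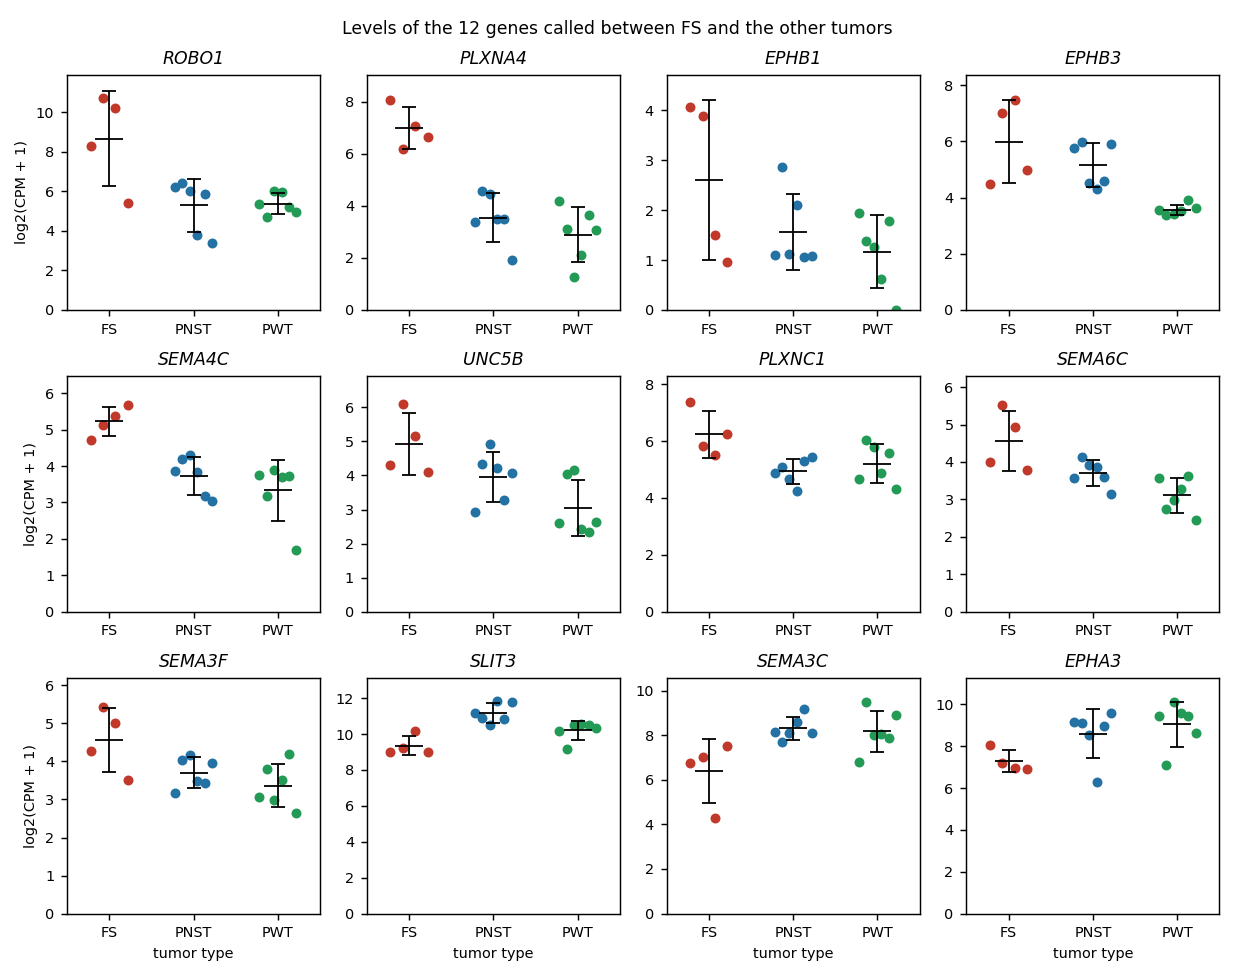
Level, as log2(CPM + 1), of each of the 12 genes called between FS and the other tumors; points are tumors, the bar and whiskers are the mean and SD of each type (4 FS, 6 PNST, 6 PWT). Only in the PLXNA4 and SEMA4C panels do the FS points clear all others, and the EPHB3 panel shows the PWT points below both other types.

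Netrins and their receptors gave a single call. UNC5B, a netrin receptor of vessels and many other tissues, was at 18.6 CPM in S1-02, 67.4 in S1-11, 35.0 in S1-12 and 16.2 in S2-06. PNST ranged from 6.54 to 29.2 and PWT from 4.09 to 16.7. Only S1-11 and S1-12 were above all others. UNC5B was called higher at a log2 fold change of 1.46 ± 0.46 with an adjusted p of 0.0497 in edgeR, close to the threshold, and 11 of 16 fits that left out a tumor lost the call, the log2 fold change ranging from 0.86 without S1-11 to 1.71.

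UNC5C, a netrin receptor of the same family, was below the count minimum because only 3 tumors reached 10 counts. Its 309 counts fell almost entirely in FS, with 179 in S1-02, 25 in S1-11, 3 in S1-12 and 89 in S2-06. No other tumor had more than 6. In CPM these were 64.2, 13.7, 5.53 and 42.3, against at most 2.42 elsewhere, so FS did not overlap the rest, although S1-12 rested on 3 counts. UNC5C was singled out after its values were seen. With no filter on low counts the log2 fold change was 5.83 ± 0.59 (edgeR adjusted p = 4.89e-06), and DESeq2 gave 6.03 ± 0.78 (adjusted p = 1.49e-11). It overlaps 4 other annotated genes. NTN4, a secreted netrin-family protein of basement membranes, was not called in any comparison, at 303 CPM in S1-02, 22.5 in S1-11, 40.5 in S1-12 and 27.1 in S2-06, against 39.2 to 237 elsewhere. S1-02 was the highest of the 16 tumors and S1-11 and S2-06 the lowest, so FS alone spanned the whole range. DCC, the netrin receptor of commissural neurons, named after its values were seen, had no count in any FS tumor and at most 2.84 CPM elsewhere.

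Eph receptors, tyrosine kinases that bind ephrins on neighbouring cells, moved in both directions. EPHA3 was lower in FS, at 270 CPM in S1-02, 148 in S1-11, 125 in S1-12 and 121 in S2-06. PNST ranged from 76.9 to 761 with a median of 523, and PWT from 137 to 1116 with a median of 694. Apart from S1-09 in PNST and S2-03 in PWT, every other tumor exceeded the FS tumors. The log2 fold change was -1.73 ± 0.52 (edgeR adjusted p = 0.0399), and 9 of 16 fits without a tumor lost the call, with log2 fold changes from -2.06 to -1.59.

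EPHB3 was at 21.5 CPM in S1-02, 129 in S1-11, 175 in S1-12 and 30.4 in S2-06, against 18.7 to 62.5 in PNST and 9.29 to 13.9 in PWT. S1-11 and S1-12 were above every other tumor, and S1-02 and S2-06 lay within the PNST range. EPHB3 was higher in FS at a log2 fold change of 1.76 ± 0.55 (edgeR adjusted p = 0.0466), a call lost in 11 of 16 fits without a tumor, with log2 fold changes from 1.22 to 2.11. EPHB1 was at 15.8, 13.7, 1.84 and 0.95 CPM in S1-02, S1-11, S1-12 and S2-06, against 0 to 6.29 elsewhere, and was called higher at 2.05 ± 0.63 (edgeR adjusted p = 0.0437) on the values of S1-02 and S1-11. It overlaps 5 other annotated genes, and its call was kept in 4 of the 12 fits without a tumor in which it could be tested. Of the ephrins, none was called by edgeR in any comparison, while DESeq2 called EFNB1 higher in FS and EFNB1 and EFNA2, the latter named after its values were seen, lower in PWT. EFNB1, a membrane-spanning ligand of EphB receptors, stood at 14.3, 121, 53.4 and 53.7 CPM in FS, 6.52 to 60.7 in PNST and 5.24 to 19.9 in PWT. Its log2 fold change in FS was 1.54 ± 0.52 (edgeR adjusted p = 0.0648).

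The FS calls depended on which tumors entered, as did those of all genes, of which 1457 were called. Without the reassigned S1-10 and S2-08, 5 axon guidance genes were called (PLXNA4, ROBO1, SEMA4C, PLXNC1 and SEMA6C), of 1028 genes in all. With the tumors grouped by histology, 3 were called (PLXNA4, ROBO1 and SEMA4C), of 205 in all. With the name prefix as a term there were 8 calls of 1457 in all, 5 higher (PLXNA4, ROBO1, SEMA4C, PLXNC1 and SEMA6C) and 3 lower (SLIT3, SEMA3C and NRP2). Of these, 7 were among the 12 and NRP2 was gained. The genes lost, with their edgeR adjusted p in that fit, were EPHA3 (0.0632), SEMA3F (0.0682), UNC5B (0.0918), EPHB1 (0.1) and EPHB3 (0.101). Leaving out S1-11 left 4 of 911, S2-08 left 5 of 1235, S1-10 left 6 of 1278 and S1-07 left 7 of 1296. Within the S1 tumors 5 genes were called, of 825 in all, and within the S2 tumors 2, PLXNA4 and SEMA3G, of 93.

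Markers of other cells also differed between types. Of 10 neuron markers, 5 were tested and 3 were lower in FS. The list summed to 5.02 to 16.2 CPM in FS, against 63.3 to 584 in PNST and 37.6 to 225 in PWT. A few genes carried these sums, with STMN2 alone at 456 of the 584 CPM in S1-09. SNAP25, SYT1, RBFOX3, NEFL, NEFM and ELAVL4 were at 8.23 CPM or less in every tumor, so the sums do not measure neuron content. Of 10 fibroblast markers, 3 were higher in FS. The list summed to 102000 CPM in S1-11, against 11000 to 38900 in the PNST and PWT tumors. S1-02 (29400), S1-12 (28400) and S2-06 (19800) lay within that range. The lists of 10 pericyte and smooth muscle markers and of 10 macrophage markers had 1 gene each higher in FS, and of 10 lymphocyte markers 4 were tested and none was called. The pericyte and smooth muscle list summed to 623 to 1960 CPM in FS, 431 to 909 in PNST and 421 to 867 in PWT. Its medians were 1250, 794 and 570 CPM, lowest in PWT, and none of its markers was called in PWT against FS and PNST. Of 10 Schwann cell markers, 6 were tested and none was called, with sums of 46 to 150 CPM in FS, 65.7 to 296 in PNST and 42.6 to 130 in PWT. The part of these cells in the axon guidance calls was not tested. The 10 epidermal markers, none of them called, summed to 1060 to 1660 CPM in S1-02, S1-04, S1-05, S1-12 and S2-03, from all 3 types, and to 127 or less in the other 11. EPHA1, an Eph receptor of epithelia named after its values were seen, was highest in the same 5 tumors, at 8.96, 8.17, 16.4, 9.21 and 5.25 CPM, against 4.37 or less in the others. These values rest on few counts, with 5 in S1-12 and 13 in S2-03, against 8 in S2-08. SEMA4A, also named after its values were seen, was at 22.6, 19.5, 15.8, 3.68 and 21.0 CPM in the same order. The other tumors had 8.18 or less, so S1-12 lay among them.

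Other genes of the pathway, mostly ones that carry guidance signals inside the cell but also the membrane-anchored ligands RGMA and RGMB, were counted as a list. Of these 53 genes, here called effectors, 50 were tested. In FS, 3 were higher (the actin regulators ENAH and SRGAP2 and the myosin light chain MYL9) and 5 were lower (CRMP1 and DPYSL3, which are collapsin response mediator proteins, with DOCK1, TIAM1 and MICAL2). The effectors whose values follow were chosen after those values were seen. ENAH, an actin filament elongation factor downstream of Robo and netrin receptors, had a log2 fold change of 1.80 ± 0.29 (edgeR adjusted p = 0.000929), and SRGAP2, a Slit-Robo GTPase activator, 1.26 ± 0.28 (edgeR adjusted p = 0.00726). CRMP1, a mediator of semaphorin signals, had -2.48 ± 0.70 (edgeR adjusted p = 0.0283). In the share higher, 6%, the effectors were near the 5.78% of all genes, and in the share lower, 10%, they were above 3.68%. The edgeR test called no effector in the other comparisons.

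PNST were set against FS and PWT pooled. The edgeR test called none of the axon guidance genes and no gene at all (0% higher and 0% lower of 15408). At an unadjusted p under 0.05, 4 of the 56 tested axon guidance genes were higher and 5 lower, shares close to the 6.57% and 9.10% of all genes tested. DESeq2 called 2 of the 63 given an adjusted p, SLIT3 higher and UNC5C lower, against 1.55% of all genes. The smallest p values belonged to SLIT3 (log2 fold change 1.25 ± 0.32, edgeR adjusted p = 0.145), PLXNB2 (0.96 ± 0.25, edgeR adjusted p = 0.147) and SLIT2 (1.24 ± 0.43, edgeR adjusted p = 0.217). The PNST values of both Slits are given above, and for SLIT2 4 of 6 PNST tumors exceeded every other tumor. PLXNB2, a plexin that receives class 4 semaphorins, was at 298 to 597 CPM in PNST with a median of 424, against 272, 344, 169 and 176 in the FS tumors and 116 to 360 in PWT. Here 5 of 6 PNST tumors exceeded every FS and PWT tumor.

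PWT against FS and PNST pooled gave 1 call, EPHB3, lower by 2.41 on the log2 scale (SE 0.51, edgeR adjusted p = 0.0269). Over all genes tested, 1.41% were called higher and 0.714% lower. The PWT values of EPHB3 were 10.8 CPM in S1-07, 9.29 in S2-03, 9.76 in S2-04, 10.4 in S2-08, 13.9 in S2-09 and 11.2 in S2-11. All 6 were below the lowest of the other 10 tumors, 18.7 in S1-09, and they were close together (SD 1.63). Within the S1 tumors, where S1-07 is the only PWT, the log2 fold change was -2.51 ± 1.46, and within the S2 tumors it was -2.0 ± 0.36, neither of which was called. With the prefix as a term it was -2.19 ± 0.63 (edgeR adjusted p = 0.275). The call was also lost with the tumors grouped by histology and without S2-03, S2-04 or S2-11. Leaving out S2-06 gave 2 calls and leaving out S2-07 gave 3. With DESeq2, 8 of the 63 axon guidance genes given an adjusted p were lower and none higher, against 5.30% of all genes in either direction.

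EPHB6, an Eph receptor without kinase activity, came next in PWT. It was at 4.18 to 12.1 CPM in PWT with a median of 6.43, against 3.92 to 38.1 in PNST and 23.0, 40.0, 12.9 and 9.03 in the FS tumors. Its log2 fold change was -1.54 ± 0.45 (edgeR adjusted p = 0.066). It was -1.93 ± 0.83 within the S1 tumors and 0.27 ± 0.55 within the S2 tumors. PLXNA4 in PWT, at -2.95 ± 0.90 (edgeR adjusted p = 0.0753), was set against a pool that held the FS tumors described above.

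Of the 56 tested genes, 45 had a log2 fold change below 0 in PWT (80.4%, against 55.1% of all genes tested). Their median was -0.57, against a median of -0.08 over all genes tested. All 4 comparisons draw on the same tumors, so this is not separate from the FS contrast. The pattern differed with the way the name prefix entered the fit. With the prefix as a term, 34 of 56 were below 0 (60.7%, against 51.7% of all genes) with a median of -0.11. Within the S1 tumors, which hold 1 PWT, 44 of 55 were below 0 (80%, against 56.4% of all genes) with a median of -0.61. Within the S2 tumors, which hold 5 of 6 PWT, 23 of 46 were (50%, against 49.7% of all genes), with a median of -0.01. The prefix and the PWT type are tied in these tumors, and their parts in this pattern cannot be told apart.

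**Figure D5:**
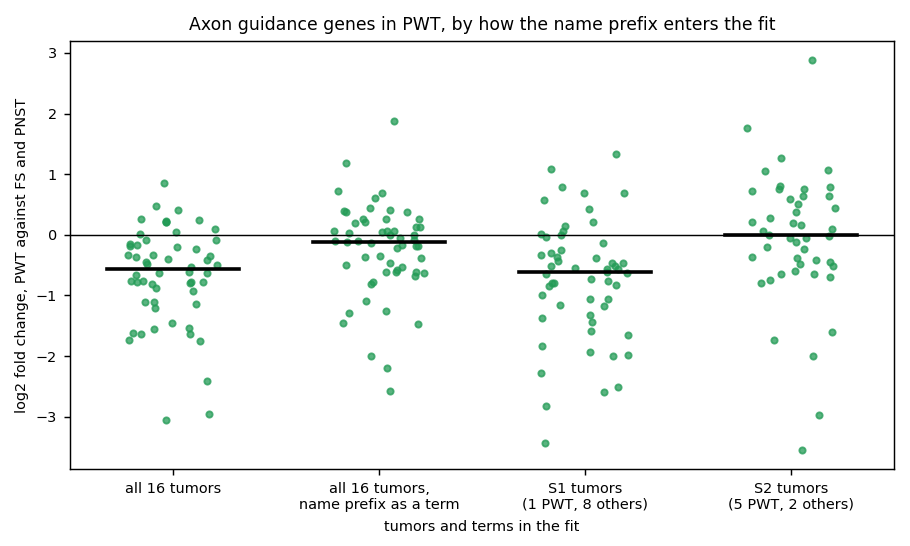
Log2 fold change of each tested axon guidance gene (points) between PWT and the other tumors, with the median as a bar, in fits of all 16 tumors without and with the name prefix as a term and in fits of the S1 or S2 tumors alone. The median lies at -0.57 with all tumors, -0.11 with the prefix as a term, -0.61 within the S1 tumors and -0.01 within the S2 tumors.

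PNST and PWT were compared directly in a fit of all 3 groups. No axon guidance gene was called by edgeR, where 0.0714% of all genes tested were higher in PNST and 0.0974% lower. At an unadjusted p under 0.05, 8 of the 56 genes were higher in PNST and 0 lower, against 9.38% and 10.2% of all genes. DESeq2 called 3 higher of the 59 given an adjusted p, against 3.43% of all genes in either direction. Those 3 were EPHB3 (log2 fold change 1.86 ± 0.48, edgeR adjusted p = 0.0689), PLXNB2 (1.05 ± 0.28, edgeR adjusted p = 0.0806) and EPHB6 (1.56 ± 0.49, edgeR adjusted p = 0.116). EPHB3 did not overlap between the types, with the highest PWT at 13.9 CPM and the lowest PNST at 18.7. Leaving out S2-07 brought EPHB6 past the threshold, and leaving out S2-08 did so for PLXNB2. The name prefix is uneven here, with 5 of 6 PNST named S1 and 5 of 6 PWT named S2. With the prefix as a term the log2 fold change was 1.78 ± 0.57 for EPHB3, 0.68 ± 0.33 for PLXNB2 and 0.47 ± 0.64 for EPHB6 (edgeR adjusted p 0.503, 0.712 and 0.912). In that fit 27 of the 56 genes were above 0, against 45 without the term. The share below 0 was 51.8% with the term (50.8% of all genes) and 19.6% without it (48.9% of all genes).

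The axon guidance genes also had a larger median spread within a type than all genes tested, which were not matched to them for count level. The median SD of log2(CPM + 1) over tumors of a type was 0.94 for the tested axon guidance genes in FS, 0.73 in PNST and 0.74 in PWT, where all genes tested gave 0.68, 0.46 and 0.56. S1-11 was the highest of the 16 tumors for 11 of the 56 genes (19.6%, against 8.29% of all genes tested), S1-12 for 8 (14.3% against 12.2%) and the PNST S1-05 for 8 (14.3% against 3.93%), whereas S2-06 was the lowest for 10 (17.9% against 7.88%). ROBO1, SEMA3F, SEMA6C, EPHB3 and UNC5B were higher in S1-11 and S1-12 than in S2-06, while SEMA3G and SEMA4C were highest in S2-06 and PLXNA4, PLXNC1 and UNC5C in S1-02. The tumor with the highest level was an FS for 31 of the 56 genes (55.4%, against 40.2% of all genes tested), a PNST for 18 (32.1% against 25.7%) and a PWT for 7 (12.5% against 34.1%).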

How the data were processed

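The authors aligned Ion Proton reads to the dog assembly ROS-canfam-01 with STAR and counted them per gene with HTSeq, which the submitters' processing notes name without a version. They deposited raw counts per gene and sequencing run, and whether strand was used is not given in the sources used here. The 34 runs were summed to 16 tumors, and 5 summary rows that name no gene were left out. These held 69.4% to 77.1% of a tumor's reads, most of them on no annotated feature or not uniquely aligned, so depth on genes was low and precision is limited for genes with few counts. The genes and lists described here were chosen with earlier results of these data known.

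A gene was kept where 4 tumors or more had 10 counts or more (15408 of 41818 genes). Counts were scaled by TMM factors and tested with edgeR 4.0.16 by the quasi-likelihood test, with Benjamini-Hochberg adjustment over all genes tested. Each type was set against the other types pooled, as in the study, and PNST against PWT in a fit of 3 groups. The SE is the log2 fold change divided by the square root of the F statistic. DESeq2 1.42.0 was run as an alternative, since the study used it, and its own independent filtering replaced the count minimum. The scripts were tested on simulated data. Values in each FS tumor, with ranges or medians in PNST and PWT, are given for members called in any comparison, for the member with most CPM of each family and for the 3 members with the smallest p in each comparison, and other members named are said to be chosen after their values were seen. Cell type marker lists (endothelial, epidermal, Schwann cell, pericyte and smooth muscle, fibroblast, macrophage, lymphocyte, neuron) were only counted, as was the effector list apart from a few genes chosen after their values were seen. Overlaps between genes come from the RefSeq table of the assembly UU_Cfam_GSD_1.0, which matched all 70 symbols. The study's assembly differs, so no coordinates are printed.

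Tumors S1-04 and S1-05 differed far more than runs of a tumor did (chi-square per degree of freedom 12.05, against 1.08 to 2.25), and were kept as separate samples. Their value was the lowest among pairs of PNST tumors, the others running from 17.92 to 54.25. It cannot show whether they came from 1 dog, since separate samples of a dog can also differ more than runs. Alternatives were other library factors, no count minimum, no fold minimum, the name prefix as a term, histology as the group, leaving out the reassigned tumors and leaving out each tumor in turn. Fits within each name prefix were chosen after the data were seen.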

Additional observations from a re-analysis of the deposited data

Results flagged for a closer look

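Within-type spread was examined for the 18 genes whose values are described type by type, in 54 combinations of gene and tumor type, and 3 of them held a tumor far from the others of its type (a gap to the nearest tumor that is large against the whole range, on the log2 scale). Chance alone gives about 1 in 20. EPHA3 was at 76.9 CPM in the PNST S1-09, where the other PNST tumors ran from 374 to 761. SEMA4C was at 2.24 CPM in the PWT S2-11, against 8.08 to 13.9 in the other PWT tumors. SLIT3 was at 577 CPM in the PWT S2-03, against 1163 to 1516 in the others.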

How the results depend on the processing

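The 12 FS calls (1457 over all genes) became 19 with DESeq2 (2087), 3 with the tumors grouped by histology (205), 5 without S1-10 and S2-08 (1028), 5 within the S1 tumors (825) and 2 within the S2 tumors (93), and ran from 4 to 13 in fits that each dropped a tumor. The single PWT call (327 over all genes) became 8 with DESeq2 (880) and 0 with the prefix as a term, with histology, and within the S1 or S2 tumors (each 0 over all genes), and ran from 0 to 3 without each tumor. In the PNST comparison DESeq2 gave 2 and leaving out a tumor always 0. Between PNST and PWT DESeq2 gave 3, and leaving out a tumor gave 0 to 1. Counting S1-04 and S1-05 as 1 tumor gave 13 FS calls. The causes were not tested. PLXNA4 kept its FS call in all 26 alternatives, and ROBO1 and SEMA4C in 25, each losing it within the S2 tumors. Direction reversed in a few values: NTN4 in FS (-0.15 with all tumors) ran from -1.91 without S1-02 to 0.17 without S2-06, was also above 0 without S1-11 (0.17) or S1-12 (0.10) and was 0.23 within the S1 tumors, EPHB6 within the S2 tumors was 0.27 in PWT and -1.03 for PNST against PWT, and SEMA3F in FS was -0.11 within the S2 tumors, against a called 1.16. Of the other values of single genes, 555 kept direction and side of the threshold, 112 lost it and 23 gained it. No paired analysis was possible because replicate numbers only name tumors. Depth limits UNC5C, DCC and other genes with few counts.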
